A study of Mus musculus with 6 samples.

Results

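The genes described here are 9 markers of the early gut and of anterior definitive endoderm, namely Trh, Cxcr4, Pyy, Isx, Shh, Nkx2-1, Vil1, Spink1 and Cited1. They were chosen as a list of names, and every probe set that the array's annotation gives to one of them alone was taken. This gave 10 probe sets for the 9 genes, out of 18193 genes and 45037 probe sets on the array, with 2 probe sets for Shh and 1 for each other gene. They were measured in mouse embryoid bodies, which are rounded aggregates of differentiating embryonic stem cells. All bodies came from the D3 embryonic stem cell line, were grown in rotary culture without LIF, the factor that holds these cells undifferentiated, and carried gelatin-coated microspheres inside them. In the RA group (3 arrays) the microspheres were loaded with retinoic acid, which is made from vitamin A and binds nuclear receptors. In the control group (3 arrays) they were loaded with the dye CellTracker Red. Both groups were sampled at 10 days. Each array read RNA from whole bodies, so fewer cells of a type and less RNA per cell cannot be told apart. The labels mention several ratios of microspheres to cells and several rotary speeds, and the sources used here do not say which were behind these 6 arrays. The labels call the arrays triplicates and do not say that they came from separate cultures, so p-values cover only the spread among these arrays, which may be technical.

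Definitive endoderm is the cell layer that leaves the epiblast through the anterior primitive streak and displaces the visceral endoderm, the older layer that feeds the embryo. It rolls up into the gut tube, whose anterior part gives rise to thyroid, lung, liver and pancreas and whose posterior part becomes the intestine. Several of these markers are also used elsewhere in the embryo. Trh and Nkx2-1 are known from the hypothalamus, Shh from notochord and floor plate, Cxcr4 from blood and vessels, and Spink1 and Cited1 from visceral endoderm.

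With RA microspheres, 6 of the 9 markers were higher and 0 were lower than with control microspheres. Trh was 9.01 times higher, Cxcr4 3.60 times, Cited1 2.48 times, Pyy 2.24 times, Spink1 2.23 times and Shh 1.78 times. Vil1 did not pass the test, and Isx and Nkx2-1 lay too low on the array to be tested. Levels are given as log2(intensity + 16) after quantile normalization between arrays. Probe sets were tested if their mean over the 6 arrays exceeded 5.74 on this scale, the 40th percentile of all probe sets, and 7 of the 9 genes met this. A gene is said to have risen or fallen if its limma p, adjusted over all 13608 genes tested, was below 0.05. Of all genes tested 14.3% rose, 15.6% fell and 3.04% rose at least 2-fold, against 6, 0 and 5 of the 7 tested markers. The median log2 fold change was 1.16 over the 7 markers and 0.01 over all genes tested. A gene that passed the level filter only through its RA arrays had to differ. That was not so for the 7 markers, whose control means all lay above 5.74 (the lowest 6.49, for Vil1). The markers were chosen with earlier results of these data known, so these counts describe the 7 genes and do not set them apart from others.

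**Figure D1:**
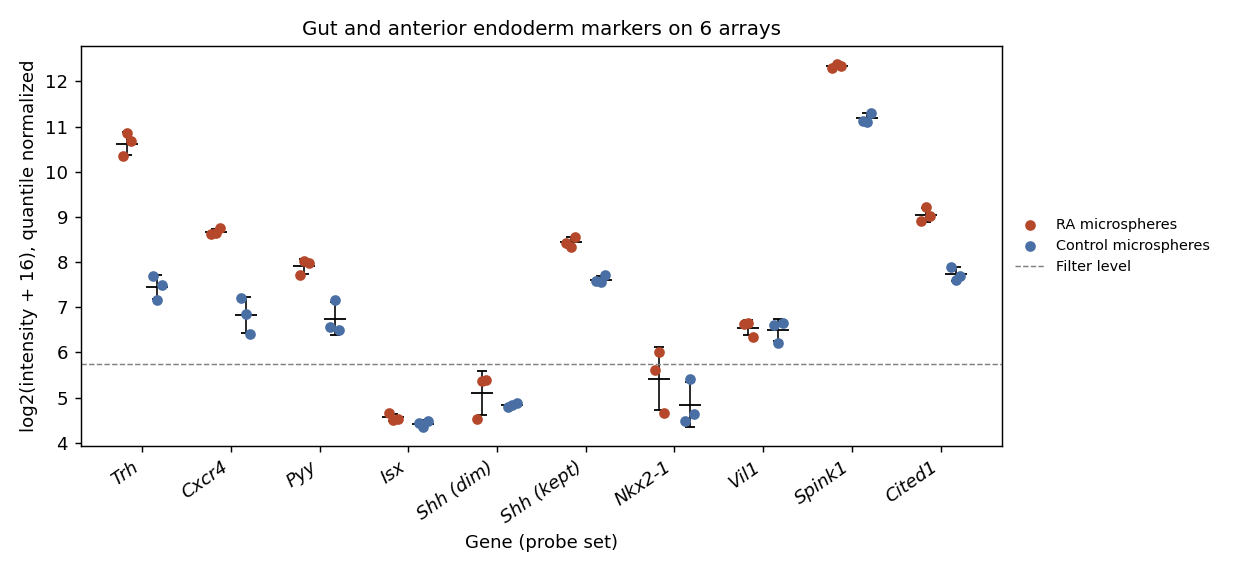
Log2 level of each of the 10 probe sets on the 3 RA arrays (left of each pair) and the 3 control arrays (right), with the group mean and SD as black bars and the filter level of 5.74 as a dashed line. The RA arrays lay above all control arrays for Trh, Cxcr4, Pyy, the brighter Shh probe set, Spink1 and Cited1, the groups overlapped for Vil1 and Nkx2-1, and Isx lay near the bottom of the scale.

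**Figure D2:**
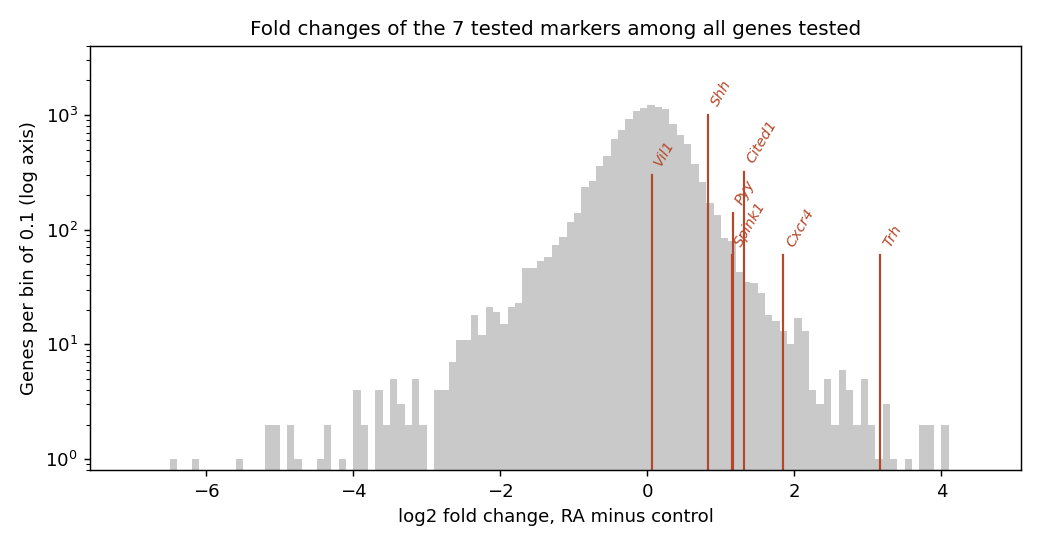
Distribution of log2 fold changes (RA minus control) over the 13608 genes tested, in bins of 0.1 on a log axis, with a red line at each of the 7 tested markers. Trh lay far in the upper tail at 3.17 and Vil1 close to the centre at 0.06.

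The depth of the arrays differed. The median deposited intensity was 61.7 to 65.5 on the RA arrays and 41.4 to 63.6 on the control arrays, with control array 3 the dimmest. The ratio of the 3-prime to the 5-prime control probe set of Gapdh, which rises when RNA is degraded, was 34.0 on RA array 1 and 3.06 to 4.74 on the other 5 arrays. The same ratio for actin was 7.42, 4.35 and 4.90 on the RA arrays, against 3.46, 3.35 and 4.24 on the control arrays (exact two-sided permutation p = 0.1, the smallest that 3 against 3 arrays allow). Without RA array 1 and control array 3 together, the same 6 markers rose. Without any scaling between arrays, the median of all genes was 0.26, and 72.9% of all calls were rises against 47.8% after quantile normalization. The 6 markers rose there too.

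Sequence around the transcription start was set beside the values for 4 of the genes that rose and for Vil1, which did not pass. RefSeq promoters of build GRCm38.p6, from 250 bases before the start to 50 after it, were used for 7 of the 9 genes. They were matched by symbol. Shh had no entry, and Spink1 was left out of the search. The motif counts for the markers therefore do not cover Shh or Spink1. Capitals mark TATAA (the core of a TATA box, searched on the gene's strand) and, searched on both strands, AGGTCA (the half-site of retinoid and other nuclear receptors), TGTTTGC and TGTTTAC (FOX factors), AACAAT (SOX factors) and CAAGTG (NKX2 factors). These motifs do not overlap one another in the windows shown. For Pyy and Cited1 the first of several listed starts is given.
Trh (chr6:92244601-92244900, minus strand): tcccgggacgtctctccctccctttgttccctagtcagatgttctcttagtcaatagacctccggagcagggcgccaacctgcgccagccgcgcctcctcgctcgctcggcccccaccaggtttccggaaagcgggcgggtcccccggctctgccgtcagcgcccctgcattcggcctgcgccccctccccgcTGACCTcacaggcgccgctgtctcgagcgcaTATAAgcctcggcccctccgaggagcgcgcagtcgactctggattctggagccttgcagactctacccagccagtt
Cxcr4 (chr1:128592250-128592549, minus strand): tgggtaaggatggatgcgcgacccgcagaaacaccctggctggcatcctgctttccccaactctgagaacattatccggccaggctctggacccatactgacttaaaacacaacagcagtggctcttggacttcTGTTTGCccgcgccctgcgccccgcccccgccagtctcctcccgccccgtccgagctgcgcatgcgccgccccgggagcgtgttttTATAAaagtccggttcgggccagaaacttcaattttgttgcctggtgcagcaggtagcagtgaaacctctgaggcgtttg
Pyy (chr11:102107783-102108082, minus strand): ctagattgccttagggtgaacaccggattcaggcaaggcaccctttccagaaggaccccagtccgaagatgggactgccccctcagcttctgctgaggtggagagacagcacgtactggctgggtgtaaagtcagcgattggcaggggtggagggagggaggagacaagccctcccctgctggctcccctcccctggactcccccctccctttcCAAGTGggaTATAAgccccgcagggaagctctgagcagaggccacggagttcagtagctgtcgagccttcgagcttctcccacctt
Cited1 (chrX:102252132-102252431, minus strand): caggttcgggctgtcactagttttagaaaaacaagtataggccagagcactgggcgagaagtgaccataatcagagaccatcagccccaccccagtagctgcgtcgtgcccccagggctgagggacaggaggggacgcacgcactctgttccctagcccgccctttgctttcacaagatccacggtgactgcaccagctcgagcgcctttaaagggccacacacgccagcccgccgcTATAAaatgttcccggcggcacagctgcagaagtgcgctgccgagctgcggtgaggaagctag
Vil1 (chr1:74409134-74409433, plus strand): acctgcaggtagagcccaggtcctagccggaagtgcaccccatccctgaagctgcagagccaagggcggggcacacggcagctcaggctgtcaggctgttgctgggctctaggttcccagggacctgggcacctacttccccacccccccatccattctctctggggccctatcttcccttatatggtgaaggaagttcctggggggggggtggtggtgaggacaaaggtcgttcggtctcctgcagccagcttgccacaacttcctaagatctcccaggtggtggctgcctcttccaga
TATAA began 26 bases before the start in Trh, 30 in Cxcr4, 27 in Pyy and 13 in Cited1, and it occurs in 17.5% of the 32851 promoters of this length. Trh held 1 AGGTCA on the opposite strand, beginning 57 bases before the start, a motif that 16.3% of promoters hold. Cxcr4 held 1 TGTTTGC, which 5.07% hold, and Pyy held 1 CAAGTG, which 13.6% hold. TGTTTAC (3.65% of promoters) was in none of the windows shown, and AACAAT (10.7%) was in none of them either. Among the promoters not shown, Isx held CAAGTG on the opposite strand, and Nkx2-1 held AACAAT and AGGTCA. Of the other Cited1 starts, the second listed held TATAA 115 bases before the start and the third held AGGTCA on the opposite strand 217 bases before it. AGGTCA was thus in an entry of 3 of the 7 genes, Trh, Cited1 and Nkx2-1, and TATAA in an entry of 4. These genes have 10 entries, and a gene with several has more places for a motif, while the shares of promoters count single entries. The other Pyy start held the same TATAA and CAAGTG, since its window overlaps the one shown. A direct repeat of AGGTCA with 5 bases between, a form of retinoic acid receptor element, was searched as this exact string only. It was in 0 of the 10 entries used for these genes. Only 3 of all 32851 promoters held it, so its absence says little. The Vil1 window held none of these letters, which says nothing about the factors themselves.

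Among the secreted signals, Trh encodes the precursor of thyrotropin-releasing hormone, a short peptide of the hypothalamus that is also transcribed in early definitive endoderm. Its probe set had deposited intensities of 1350, 2260 and 1880 on RA arrays 1, 2 and 3, against 204, 140 and 113 on the control arrays. On the log2 scale these were 10.34, 10.86 and 10.67 with RA and 7.69, 7.17 and 7.50 in controls. The lowest RA array lay 2.65 above the highest control array, the widest gap of the 10 probe sets. The log2 fold change was 3.17 ± 0.16 (SE, n = 3 arrays each; 95% interval 2.83 to 3.52; limma adjusted p = 8.11e-08). It ranked 12 among 13608 genes ordered from the largest rise down.

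Pyy encodes peptide YY, a hormone of enteroendocrine cells of the distal gut and of the pancreas. Its intensities were 198, 274 and 262 with RA and 75.5, 140 and 52.9 in controls. The log2 levels were 7.72, 8.02 and 7.98 with RA and 6.57, 7.17 and 6.50 in controls. Control array 2 was the highest of its group, and the groups did not overlap, with a gap of 0.55. The log2 fold change was 1.16 ± 0.21 (SE, n = 3 each; 95% interval 0.70 to 1.62; limma adjusted p = 0.00143), the widest interval among the 6 genes that rose. Pyy had the highest adjusted p of the 6 as well.

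Shh encodes Sonic hedgehog, a morphogen of the gut epithelium, notochord and floor plate. Its brighter probe set read 331, 353 and 405 with RA and 184, 185 and 132 in controls. As log2 levels these were 8.42, 8.33 and 8.56 with RA and 7.57, 7.55 and 7.71 in controls, with tight groups 0.62 apart. The log2 fold change was 0.83 ± 0.13 (SE, n = 3 each; 95% interval 0.54 to 1.12; limma adjusted p = 0.000643). The other Shh probe set was dim, with intensities of 7.93, 27.3 and 29.5 on RA arrays 1, 2 and 3, against 10.7, 13.5 and 9.57 on the control arrays. On RA array 1, the array with the Gapdh ratio of 34.0, it lay below all controls (log2 level 4.53), while RA arrays 2 and 3 (5.36 and 5.40) lay above them. On that array the dim probe sets of Isx and Nkx2-1 lay above all controls, and a link to RNA quality was not tested. The dim Shh probe set was below the filter and was not tested, so the call for Shh rests on 1 probe set.

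Cxcr4, the receptor for the chemokine Cxcl12, guides migrating cells and is a surface marker used to sort definitive endoderm. Its intensities were 382, 447 and 468 with RA and 135, 110 and 49.1 in controls. The log2 levels were 8.61, 8.65 and 8.75 with RA and 7.20, 6.86 and 6.40 in controls. The RA arrays were close together (SD 0.07) and the control arrays spread more widely (SD 0.40), with control array 3 the lowest. The log2 fold change was 1.85 ± 0.19 (SE, n = 3 each; 95% interval 1.42 to 2.27; limma adjusted p = 3.13e-05), and it was 1.67 without control array 3.

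Of the transcription regulators, Cited1 encodes a co-activator that binds the histone acetyltransferases p300 and CBP and carries no DNA-binding domain of its own. Its intensities were 479, 678 and 572 with RA and 240, 194 and 131 in controls. The log2 levels were 8.91, 9.21 and 9.02 with RA and 7.90, 7.61 and 7.70 in controls, a gap of 1.01 between the groups. Cited1 thus had a log2 fold change of 1.31 ± 0.13 (SE, n = 3 each; limma adjusted p = 2.35e-05).

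Isx, an intestine-specific homeobox factor, and Nkx2-1, a homeobox factor of the thyroid, lung and ventral forebrain, lay below the filter. Isx had intensities of 10.3, 7.41 and 7.87 with RA and 4.89, 4.58 and 4.58 in controls. The RA arrays were the higher ones, but the log2 levels were 0.02 apart at the nearest and the probe set stood at the 4.2 percentile of all probe sets. Nkx2-1 had intensities of 33.8, 52.5 and 10.2 on RA arrays 1, 2 and 3, against 5.39, 29.8 and 6.36 on the control arrays. Its groups overlapped, with RA array 3 (log2 level 4.65) near control arrays 1 and 3 (4.48 and 4.64). With no level filter the log2 fold change was 0.14 for Isx (limma adjusted p = 0.603) and 0.58 for Nkx2-1 (limma adjusted p = 0.341). A difference in either gene was not detectable at these signals, which does not show that there was none.

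Of the epithelial products, Spink1 encodes a secreted trypsin inhibitor, and its probe set stood at the 98.9 percentile of all probe sets. Its intensities were 5460, 6380 and 5940 with RA and 2320, 2210 and 1550 in controls. The log2 levels were 12.29, 12.38 and 12.34 with RA and 11.12, 11.11 and 11.31 in controls, and the groups were 0.98 apart. Its log2 fold change was 1.15 ± 0.08 (SE, n = 3 each; 95% interval 0.99 to 1.32; limma adjusted p = 7.26e-07), the narrowest interval among the tested markers.

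Vil1 encodes villin, the actin-bundling protein of the intestinal brush border. Its intensities were 88.8, 93.8 and 74.3 with RA and 77.4, 63.8 and 60.4 in controls. The log2 levels were 6.63, 6.66 and 6.35 with RA and 6.60, 6.21 and 6.66 in controls, so that RA array 3 lay below control arrays 1 and 3. The log2 fold change was 0.06 ± 0.24 (SE, n = 3 each; limma adjusted p = 0.880). Its 95% interval ran from -0.46 to 0.58, which leaves room for a fold of 0.727 to 1.49.

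By size, the fold change of Trh stood apart from the others, since its 95% interval (7.11 to 11.5 times) lay above that of Cxcr4 (2.68 to 4.82 times). The intervals of Cited1, Pyy and Spink1 overlapped one another (2.03 to 3.03, 1.62 to 3.07 and 1.99 to 2.50 times), so their order is not settled. Shh (1.45 to 2.17 times) overlapped all of these and lay below Cxcr4. In 6 of the 7 tested markers every RA array lay above every control array, which was so for 21.8% of all genes tested, and in 44.0% the groups did not overlap in either direction.

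The array profiles nearest to each marker were found by the root mean square difference of log2 values centred on the gene's mean over the 6 arrays. Nearest to Trh were Fgf15 (0.135) and Lin28a (0.186), with log2 fold changes of 3.21 and 2.87. Nearest to Cxcr4 were Sparcl1 (0.119) and Fst (0.128), and nearest to Cited1 were Bend3 (0.064) and Prss12 (0.084). Pyy lay closest to Il17d (0.056) and Pipox (0.084), Shh to Retreg1 (0.050) and Glce (0.054), and Spink1 to Timm8a1 (0.055) and Mtcl1 (0.061). With 2 groups of 3 arrays, genes of like fold change and spread lie near each other by this measure.

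**Figure D3:**
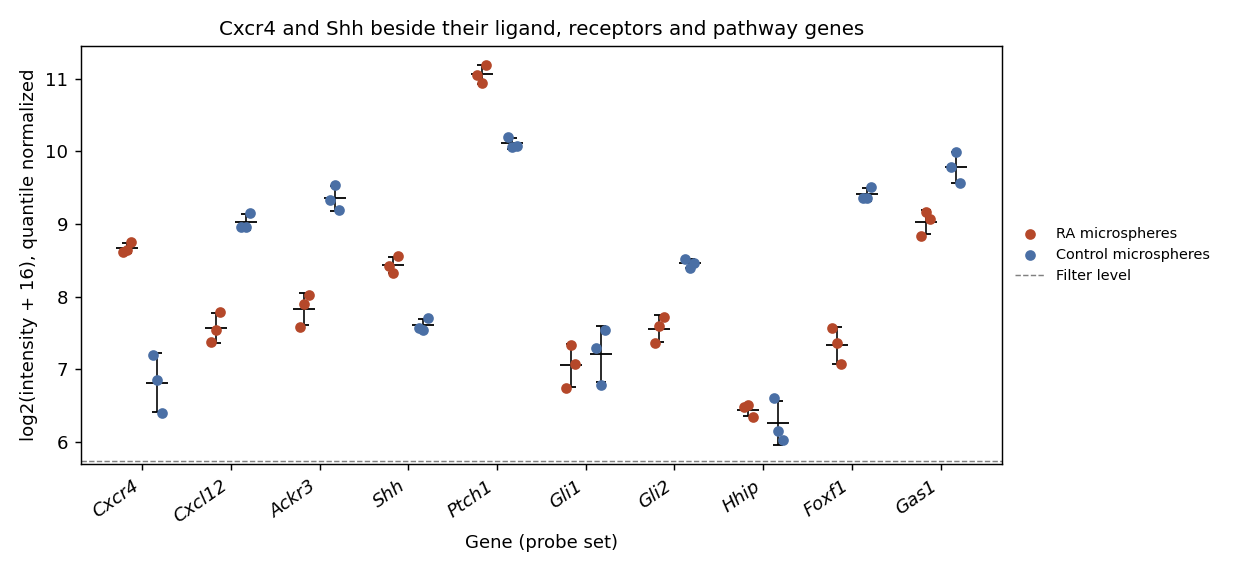
Log2 level of Cxcr4 and Shh beside genes of their pathways on the 3 RA arrays (left of each pair) and the 3 control arrays (right), with group means and SDs as black bars. Cxcl12, Ackr3, Gli2, Foxf1 and Gas1 were lower with RA, Ptch1 was higher, and the groups overlapped for Gli1 and Hhip.

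The binding partners of Cxcr4 went the other way from the receptor. Cxcl12, its ligand, had log2 levels of 7.38, 7.54 and 7.79 with RA and 8.96, 8.96 and 9.15 in controls, 2.74 times lower with RA (limma adjusted p = 1.50e-05). Ackr3, a second receptor that takes Cxcl12 out of circulation, had 7.59, 7.90 and 8.02 with RA and 9.33, 9.54 and 9.19 in controls, 2.87 times lower (limma adjusted p = 1.31e-05). In both the groups were far apart. Cited2, a relative of Cited1 and not its binding partner, was 1.45 times higher (log2 fold change 0.54 ± 0.08, SE, limma adjusted p = 0.000443). Of the partners of Cited1, Ep300 (p300) was 1.29 and Crebbp (CBP) 1.26 times higher (limma adjusted p = 0.0315 and 0.0426). Both were named after their values were seen. The list of binding and processing partners, which also holds relatives of Cited1, has 19 genes. Of these 13 were tested, 4 rose and 4 fell, against 14.3% and 15.6% of all genes tested. Their median log2 fold change was 0.22. The sign of that median rested on single arrays, since it was -0.13 without control array 2 and -0.01 without RA array 3. Without RA array 1 only 1 of them rose, and without control array 2 only 2 did. The receptors of Trh, Trhr and Trhr2, lay below the filter.

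The Hedgehog pathway did not follow Shh as a whole. Ptch1, the Hedgehog receptor and a common target of the pathway, had log2 levels of 11.05, 10.94 and 11.19 with RA and 10.20, 10.06 and 10.08 in controls, 1.92 times higher (limma adjusted p = 1.12e-05). The targets Gli1 and Hhip did not pass, with log2 fold changes of -0.15 ± 0.24 and 0.18 ± 0.25 (SE, limma adjusted p = 0.675 and 0.633). Gli2, a transcription factor of the pathway, was 1.87 times lower with RA, and Foxf1, a mesenchymal target gene of the gut wall, was 4.22 times lower (limma adjusted p = 0.000502 and 1.01e-06). Gas1, a co-receptor named here after its value was seen, was 1.68 times lower (limma adjusted p = 0.000933). Over all genes tested 14.3% rose and 15.6% fell. Of 16 tested pathway genes other than Shh, 1 rose, 3 fell and 12 did not pass, with a median log2 fold change of -0.14. Without scaling between arrays 1 of them fell and the median was 0.09.

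Of 21 tested regulators of definitive endoderm and the gut tube 11 rose and 2 fell with RA. Of 20 tested genes of intestinal epithelium and gut hormones 4 rose and 5 fell. Over all genes tested 14.3% rose and 15.6% fell. Sox17 and Foxa2, transcription factors of definitive endoderm that visceral endoderm uses too, were 4.34 and 6.34 times higher, with RA means of 10.20 ± 0.24 and 9.32 ± 0.16 and control means of 8.08 ± 0.12 and 6.66 ± 0.83 (log2 level, SD, n = 3 each). Eomes, a T-box factor of the streak, was 6.48 times higher, and Gata6 was 2.88 times lower. Cdx2, a factor of the posterior gut, had a log2 fold change of -0.04 ± 0.27 (SE, limma adjusted p = 0.939). The median log2 fold change was 0.73 over the regulators and 0.03 over the intestinal list, of whose 37 genes 17 lay below the filter. With any 1 array left out these medians ran from 0.62 to 1.14 (the highest without control array 3, and 1.10 without RA array 1) and from 0.03 to 0.18 (the highest without RA array 2). Without scaling they were 1.39 and 0.39. Fabp1, a fatty acid carrier of enterocytes and liver, was 15.7 times lower with RA and the goblet cell peptide gene Tff3 4.33 times lower, while Eps8, an actin regulator of microvilli, was 1.99 times higher. Beside Pyy, the hormone genes Sct (secretin, 2.04 times) and Gip (3.97 times) were higher, both named after their values were seen (limma adjusted p = 0.000455 and 0.000895). The other tested hormone and enteroendocrine genes did not pass, with log2 fold changes of 0.41 for Sst, 0.34 for Tac1, 0.45 for Chgb and -0.43 for Ghrl, and Gcg, Cck, Nts and Chga lay below the filter. The control mean of Gip and the RA mean of Tff3 lay below the filter level, as did the control mean of 1 regulator that rose (Cer1).

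**Figure D4:**
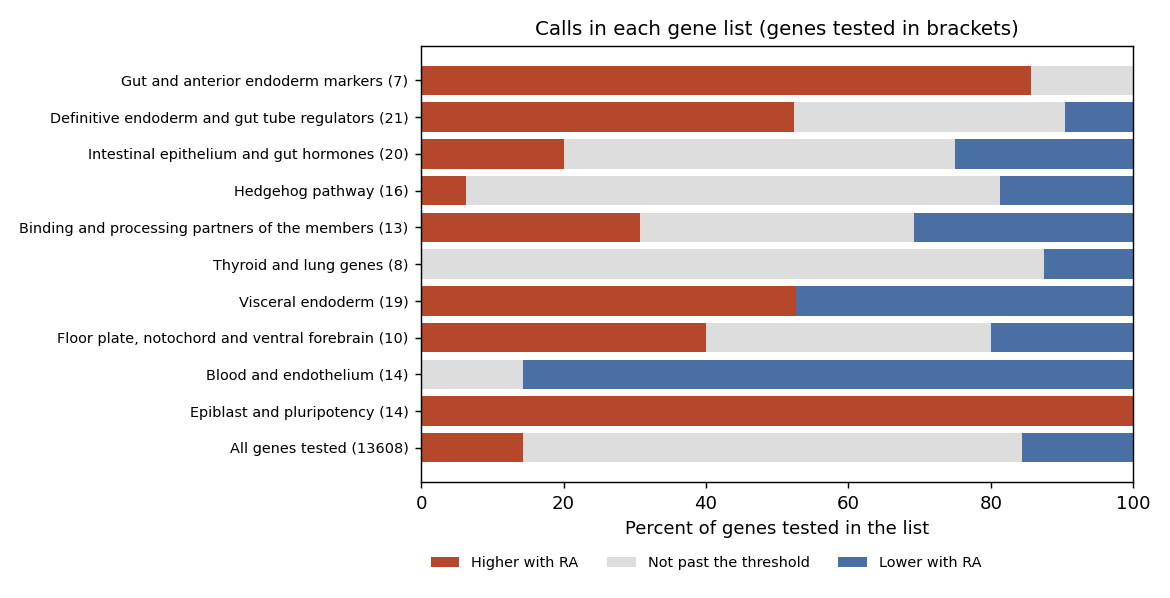
Share of tested genes in each list that rose (red), did not pass (grey) or fell (blue) with RA, with the number of tested genes in brackets. The gut and anterior endoderm markers had 6 of 7 higher and 0 lower, against 14.3% higher and 15.6% lower over all genes tested.

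For Nkx2-1, its setting among thyroid and lung genes was examined. Of 8 such genes tested 0 rose, 1 fell and 7 did not pass, against 14.3% rises and 15.6% falls over all genes tested. With so few genes these counts do not set the list apart. Its median log2 fold change was -0.20, but -0.31 without control array 3 and 0.09 without scaling. The gene that fell was Foxp1, a forkhead factor of the lung and many other tissues, 4.03 times lower with RA (limma adjusted p = 1.00e-06). A further 7 genes of this list lay below the filter, among them Pax8, a partner of Nkx2-1 in the thyroid.

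Markers of other cell types that use these genes were counted in the same way. The shares over all genes tested were 14.3% for rises and 15.6% for falls. In the visceral endoderm list, which holds Spink1 and Cited1 themselves, 10 of 19 tested genes rose and 9 fell. Rhox5 was 5.10 times higher, and Rbp4 and Fgb were 10.5 and 34.9 times lower. The RA mean of Fgb (5.11) lay below the filter level, as did those of 2 other genes of the list that fell, and so did the control means of 2 that rose. The summed intensity of this list was 18600 to 21000 on the RA arrays and 36600 to 38300 on the control arrays. In controls its brightest genes were Ttr, Afp and Rbp4 (log2 means 13.47, 13.38 and 12.31), which all fell. The sum is weighted to such bright genes and gives no direction for the list as a whole. Blood and endothelial markers, the cells in which Cxcr4 is also known, had 0 higher and 12 lower of 14, with sums of 829 to 999 with RA and 18200 to 20700 in controls. Of the genes that fell, 3 had an RA mean below the filter level. With any 1 array left out 10 to 12 fell. The smallest p in this list belonged to the embryonic globins Hbb-y, Hbb-bh1 and Hba-x, which were 88.9, 20.2 and 29.0 times lower. Epiblast and pluripotency genes, led by Dnmt3b, Fgf5 and Pou3f1, rose in 14 of 14 cases, with sums of 22300 to 23100 with RA and 4450 to 4850 in controls. With any 1 array left out 12 to 13 of them rose. Utf1 passed narrowly (limma adjusted p = 0.0499) and its groups overlapped. The control mean of Zic2 lay below the filter level. In the list for floor plate, notochord and ventral forebrain, where Shh, Nkx2-1 and Trh are also known, 4 of 10 tested genes rose and 2 fell. Of the 4, 2 had a control mean below the filter level, and so passed the filter through the RA arrays. The 2 falls of 10 lay near the share over all genes tested. Ntn1, a guidance cue of the floor plate, was 2.95 times higher, and Lhx2 and Spon1 were 2.69 and 1.68 times lower, with sums of 1370 to 1510 with RA and 1160 to 1280 in controls. The median log2 fold changes were -1.55 for blood and endothelium (-1.96 to -1.45 with any 1 array left out), 2.19 for epiblast and pluripotency (2.08 to 2.32) and 0.33 for floor plate, notochord and ventral forebrain (0.27 to 0.50). That of visceral endoderm was 1.10, but 0.04, -0.13 and 0.05 without RA array 1, 2 or 3, so it gives no direction for this list. The part of any of these cell types in the rise of the markers was not tested.

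**Figure D5:**
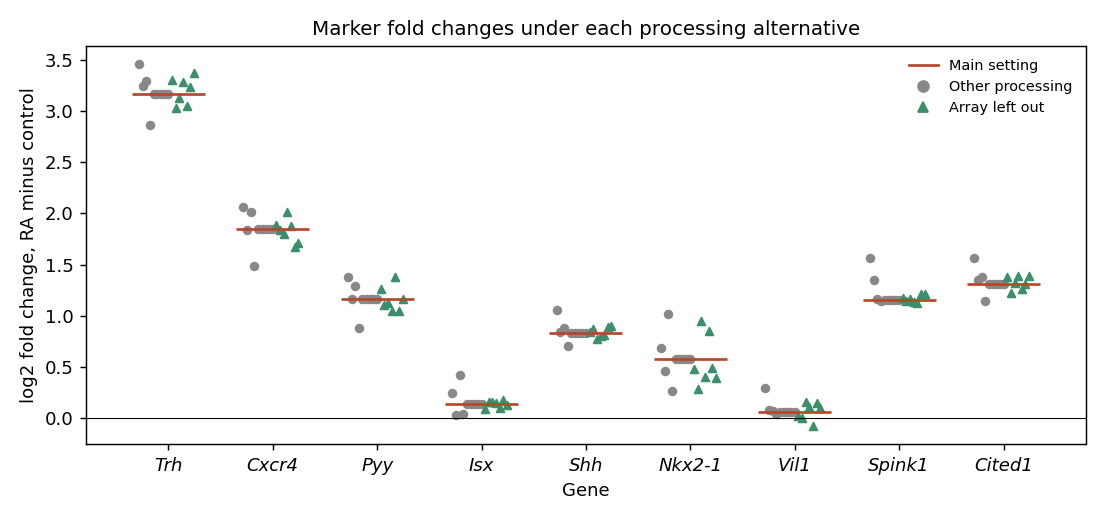
Log2 fold change (RA minus control) of each marker in the main setting (red line), under other processing (grey circles) and with 1 or 2 arrays left out (green triangles). The 6 markers that rose lay above 0 in each of the 16 alternatives, between 0.70 for Shh and 3.46 for Trh, and Vil1 lay on both sides of 0.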

How the data were processed

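Total RNA of 6 samples was labelled with biotin and hybridized to an Affymetrix mouse array, 1 array each. Per the labels, the deposited values are linear intensities made with the Affymetrix GCOS software at default settings, whose version and parameters the sources used here do not give. Levels differed between arrays (means after trimming 2% at each end ran from 108 to 191).

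From these, log2(intensity + 16) was quantile normalized after leaving out 64 control probe sets. Probe sets above the 40th percentile were kept (27022), and the brightest kept probe set naming 1 gene alone stood for that gene. Gene names were taken from the platform's annotation table (34945 probe sets with 1 symbol, 932 with several, 9160 with none). Groups and replicate numbers came from the sample titles. The comparison used limma 3.58.1 with R 4.3.3 (lmFit, eBayes with a trend, two-sided) with Benjamini-Hochberg adjustment over 13608 genes. Fold changes are RA minus control, and the pseudocount understates those of dim genes. The procedure was tested on simulated data.

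The text names every marker, up to 3 called genes with the smallest p per list (no more than 2 rises or 2 falls if the list held both), 9 genes fixed by name, and the 2 nearest profiles per marker. Some genes were named outside this rule with their values known. Among them were Gas1, Sct, Gip, Ep300, Crebbp, Ttr, Afp, Utf1, Zic2, Cer1, Sst, Tac1, Chgb and Ghrl. The markers and lists were chosen with earlier results of these data known. The 3 arrays per group limit precision, and no detection calls were used. Alternatives covered scaling, pseudocount, filter, choice of probe set, prior variance, replicate block and arrays left out.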

Additional observations from a re-analysis of the deposited data

How the results depend on the processing

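The 6 markers that rose kept their direction and passed in all 16 alternatives, with log2 fold changes of 2.86 to 3.46 for Trh, 1.49 to 2.06 for Cxcr4, 1.14 to 1.56 for Cited1, 0.88 to 1.38 for Pyy, 1.12 to 1.56 for Spink1 and 0.70 to 1.06 for Shh. The value of Vil1, which did not pass in any alternative that tested it, was -0.08 without control array 2, -0.08 to 0.16 over the fits without 1 array, and at most 0.29, without scaling. Nkx2-1 ran from 0.26 to 1.02 and Isx from 0.03 to 0.42, the highest with a pseudocount of 1. Without scaling, 651 genes were lower over the whole array, and 1 gene each was lower in the Hedgehog and in the floor plate and forebrain lists. Without a level filter 2 Hedgehog genes were higher. With the filter at the 60th percentile 2 intestinal genes were lower and 2 floor plate and forebrain genes higher, with fewer genes tested. With the mean of the kept probe sets of a gene (for Shh only 1 was kept, so its dim probe set did not enter), 1 endoderm regulator, 2 thyroid and lung genes and 1 floor plate and forebrain gene were lower. Without a trend in the prior variance 2 partner genes were higher. Without RA array 1 and control array 3 together 2 thyroid and lung genes were lower. Leaving out single arrays gave 1 to 3 higher partner genes and 1 to 2 lower thyroid and lung genes. The cause of these shifts was not tested. Same-numbered arrays showed no shared deviations from their group means (correlations -0.085, -0.014 and -0.027). With 3 arrays per group this cannot show that they were unlinked. With the replicate block 1775 genes were higher and 1949 lower, 6 markers among the higher ones. Isx, Nkx2-1 and the dim Shh probe set were limited by signal near background.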
